A study of Mus musculus with 11 samples.

Results

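The Ly49 family is a set of lectin-like surface receptors encoded by the Klra genes. Its members were taken as the genes whose symbol is Klra with a number and that had a row of their own on the array, that is, a row annotated to 1 gene symbol. The rule gave 6 of the 19937 genes measured, Klra2, Klra3, Klra5, Klra6, Klra8 and Klra17, each with 1 such row. The annotation named 15 family genes in any row, and 4 further rows carried several Klra symbols at once. The family, and Klra6 and Klra8 in particular, was selected on these same arrays, so the levels are described without a test.

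The 11 arrays, Affymetrix Mouse Gene 1.0 ST, measured splenic T-cells of Lckpr-TCL1A+/- mice and of wild-type C57BL/6 mice. The study calls the wild-type mice background-matched, and the titles of the transgenic arrays name no strain. The transgene is human TCL1A, a T-cell prolymphocytic leukemia oncogene, hemizygous and driven by the proximal Lck promoter, which is active in T-lineage cells. The 5 exponential arrays came from mice aged 15 months on average with over 80% tumor cells in blood and over 90% in spleen, and with a doubling time of 12 days. The 3 chronic arrays came from mice aged 12 months on average with 30% to 70% tumor cells in both. Both leukemia groups were CD8-enriched with magnetic beads, whereas each of the 3 wild-type arrays held pan CD3+ T-cells pooled from 3 age-matched mice. Genotype and cell selection thus changed together against wild type and cannot be told apart, and pooling may have differed as well. Between exponential and chronic arrays, phase, average age and tumor fraction changed together and cannot be told apart. How many mice stand behind each leukemia array is not given in the sources, so a p-value measures only the spread between arrays.

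Ly49 receptors bind MHC class I molecules and sit on NK cells and on some T-cells of the mouse. Inhibitory members carry a tyrosine motif in their tail that recruits the phosphatase SHP-1, and activating members pair with the adaptors DAP12 and DAP10. Each NK cell expresses only some of the Ly49 genes. The genes lie together in the NK gene complex on chromosome 6, beside other lectin-like receptor genes such as Klrd1 and Klrc1.

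RefSeq promoter windows (assembly GRCm38.p6, 250 bases before to 50 after the start of the gene) matched all 6 genes. The excerpts below are shown to compare the start regions of genes of which several were high in the same leukemias. They lie mostly outside the transcripts and do not bear on how well the array rows separate the genes, for which no transcript or probe sequence was compared. The capitals mark the longest run of letters present in all 6 windows. Each excerpt is a stretch of 91 bases.
Klra6 (chr6:130027027-130027117, minus strand): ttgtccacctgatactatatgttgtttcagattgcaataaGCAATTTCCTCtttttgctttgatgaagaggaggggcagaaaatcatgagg
Klra8 (chr6:130129932-130130022, minus strand): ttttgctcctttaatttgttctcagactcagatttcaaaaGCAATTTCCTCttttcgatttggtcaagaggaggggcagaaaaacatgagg
Klra3 (chr6:130337599-130337689, minus strand): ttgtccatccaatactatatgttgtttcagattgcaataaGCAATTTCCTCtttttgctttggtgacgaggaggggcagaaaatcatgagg
Klra5 (chr6:129913268-129913358, minus strand): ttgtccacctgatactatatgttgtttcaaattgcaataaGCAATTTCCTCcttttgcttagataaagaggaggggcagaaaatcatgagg
Klra17 (chr6:129876700-129876790, minus strand): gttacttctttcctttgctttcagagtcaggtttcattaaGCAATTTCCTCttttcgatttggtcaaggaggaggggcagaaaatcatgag
Klra2 (chr6:131247387-131247477, minus strand): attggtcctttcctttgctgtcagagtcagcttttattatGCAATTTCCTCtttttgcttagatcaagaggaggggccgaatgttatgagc
That run was found in 19 of 32851 windows of all genes, which is 0.0578%. Over the aligned bases, the windows of Klra6 and Klra8 were 81.2% identical, those of Klra6 and Klra3 93.0%, and those of Klra6 and Klra5 90.8%. The windows of Klra2 were 72.0% to 78.2% identical to the other 5. On both strands, CTTTGA, a core motif of the TCF/LEF factors, was found in the window of Klra6 alone among the 6 and in 16.0% of all windows. The RUNX core TGTGGT was in 0 of the 6 windows and in 16.8% of all windows. The TATA-box motif with the letters TATAAA was in those of Klra3, Klra5, Klra6 and Klra8 and in 13.6% of all. A match of letters is a description and not evidence of binding.

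Klra6 encodes Ly49F, an inhibitory receptor. Its level on the deposited log2 scale was 1.53, 7.88, 2.16, 1.63 and 1.71 in exponential replicates 1 to 5, 7.43, 2.28 and 2.27 in chronic replicates 1 to 3, and 1.64, 2.19 and 3.59 in wild-type replicates 1 to 3. Thus 1 exponential and 1 chronic leukemia were high, and the remaining 6 leukemia arrays lay below the highest wild-type array. Exponential replicate 2 was 4.30 above that highest wild-type array on the log2 scale, or 19.6-fold, and chronic replicate 1 was 3.85 above it, or 14.4-fold. Both groups overlapped wild type. The group means were 2.98 ± 2.75 in exponential (SD, n = 5), 3.99 ± 2.98 in chronic (SD, n = 3) and 2.47 ± 1.00 in wild type (SD, n = 3). Without exponential replicate 2 the exponential mean was 1.76, and without chronic replicate 1 the chronic mean was 2.27, both below the wild-type mean.

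Klra8 encodes Ly49H, the activating receptor known for recognition of a mouse cytomegalovirus protein. The log2 level of Klra8 was 2.02, 8.45, 3.48, 1.53 and 1.79 in exponential replicates 1 to 5, 5.71, 1.69 and 2.41 in chronic replicates 1 to 3, and 2.28, 2.87 and 2.34 in wild-type replicates 1 to 3. The 2 leukemias with high Klra6 were also the 2 with the highest Klra8. Exponential replicate 2 exceeded the highest wild-type array by 5.58 on the log2 scale, or 47.9-fold, chronic replicate 1 by 2.84, or 7.14-fold, and exponential replicate 3 by 0.61. The other 5 leukemia arrays lay below the highest wild-type array. Means were 3.45 ± 2.90 in exponential (SD, n = 5), 3.27 ± 2.14 in chronic (SD, n = 3) and 2.50 ± 0.32 in wild type (SD, n = 3). The mean was 2.20 in exponential without replicate 2 and 2.05 in chronic without replicate 1.

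**Figure D1:**
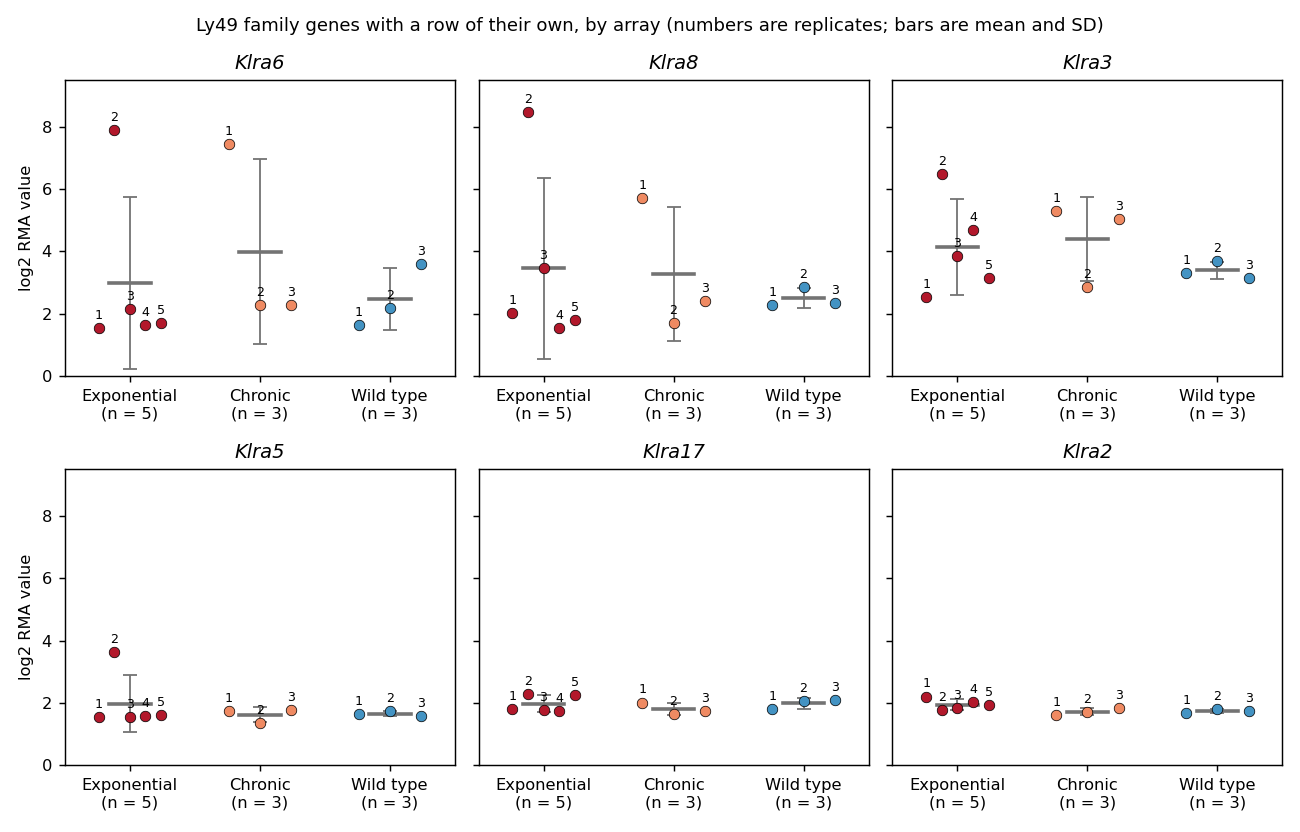
The log2 RMA value of the 6 Ly49 genes is plotted for each array of the exponential (n = 5), chronic (n = 3) and wild-type (n = 3) groups, with replicate numbers beside the points and the mean and SD in gray. Klra6 and Klra8 are high in exponential replicate 2 (7.88 and 8.45) and chronic replicate 1 (7.43 and 5.71), while Klra2 and Klra17 stay within a narrow range.

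Klra3 encodes Ly49C, an inhibitory receptor for MHC class I. Its log2 level was 2.53, 6.49, 3.86, 4.67 and 3.14 in exponential replicates 1 to 5, 5.30, 2.86 and 5.02 in chronic replicates 1 to 3, and 3.30, 3.70 and 3.15 in wild-type replicates 1 to 3. More leukemias were above wild type here than for Klra6. Relative to the highest wild-type array, Klra3 was 2.79 higher on the log2 scale in exponential replicate 2 (6.90-fold), 1.60 higher in chronic replicate 1 (3.02-fold), 1.32 higher in chronic replicate 3 (2.50-fold) and 0.97 higher in exponential replicate 4 (1.96-fold). Chronic replicate 3 carried this level without Klra6 or Klra8 above wild type. The means were 4.14 ± 1.54 in exponential (SD, n = 5), 4.39 ± 1.34 in chronic (SD, n = 3) and 3.39 ± 0.28 in wild type (SD, n = 3), and the groups overlapped.

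Klra5 encodes Ly49E, an inhibitory receptor abundant on fetal NK cells. Its log2 level was 1.54, 3.64, 1.55, 1.58 and 1.61 in exponential replicates 1 to 5, 1.74, 1.35 and 1.78 in chronic replicates 1 to 3, and 1.65, 1.75 and 1.58 in wild-type replicates 1 to 3. Only exponential replicate 2 was apart, at 1.89 above the highest wild-type array (3.70-fold), whereas chronic replicate 1 lay within the wild-type range. Klra17 and Klra2 varied least. Klra17, which encodes Ly49Q, a receptor known on plasmacytoid dendritic cells, was between 1.74 and 2.30 in exponential, 1.65 and 2.02 in chronic and 1.80 and 2.11 in wild-type arrays. Klra2, which encodes Ly49B, known from myeloid cells, was between 1.77 and 2.21 in exponential, 1.61 and 1.85 in chronic and 1.68 and 1.80 in wild-type arrays. For Klra2, exponential replicate 2 and chronic replicate 1 did not exceed the highest wild-type array.

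The 4 rows annotated to several Klra genes cannot be assigned to a gene, and how far the probes of the other 6 rows also bind related transcripts was not tested. The row of Klra14-ps, Klra9, Klra8, Klra6, Klra5, Klra3 and Klra10 was at 1.74, 7.73, 3.15, 2.58 and 2.12 in exponential replicates 1 to 5, at 6.09, 2.31 and 4.20 in chronic replicates 1 to 3, and at 1.92, 3.19 and 2.81 in wild-type replicates 1 to 3. The row of Klra14-ps, Klra9, Klra8, Klra3 and Klra10 was at 2.31, 9.07, 5.05, 4.44 and 2.31 in exponential replicates, at 7.66, 4.00 and 5.80 in chronic replicates, and at 3.48, 4.77 and 4.74 in wild-type replicates. Both had the same 2 arrays on top, followed by chronic replicate 3. The row of Klra9, Klra5 and Klra3 gave 1.73, 7.51, 3.60, 2.40 and 1.63 in exponential, 6.34, 3.35 and 4.39 in chronic, and 2.91, 3.55 and 3.67 in wild-type replicates.

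The remaining shared row, of Klra23, Klra16, Klra7, Klra4, Klra13-ps and Klra1, was annotated to none of the 6 genes with a row of their own. It was at 1.83, 3.45, 2.32, 1.81 and 1.92 in exponential replicates 1 to 5, at 4.65, 1.83 and 2.39 in chronic replicates 1 to 3, and at 1.93, 2.28 and 2.06 in wild-type replicates 1 to 3. Here the order of the 2 high leukemias was the other way, since chronic replicate 1 was 5.15-fold and exponential replicate 2 was 2.25-fold above the highest wild-type array. Over all 10 Klra rows, exponential replicate 2 was the highest array in 8 and chronic replicate 1 in 1. Chronic replicate 1 stood second in 6 of those 8. An excess of 4-fold or more over the highest wild-type array was found in 6 rows in exponential replicate 2 and in 6 rows in chronic replicate 1. The other shared rows carry symbols of genes with a row of their own, so the 10 rows are not separate readings. Among the 6 rows of 1 gene, exponential replicate 2 was highest in 5. There the 4-fold excess was found in 3 rows in exponential replicate 2 and in 2 in chronic replicate 1. Since the family was selected on these arrays, these counts are a description.

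**Figure D2:**
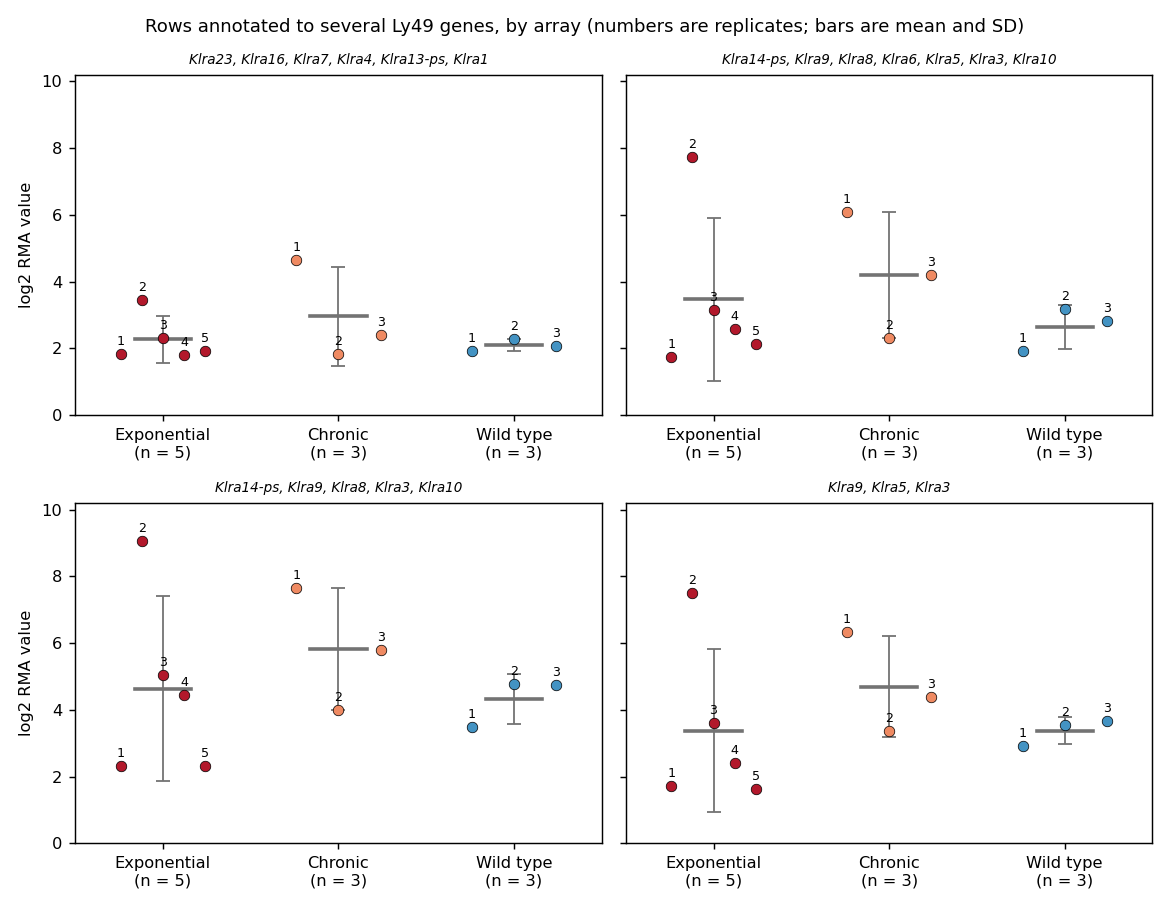
The log2 RMA value of the 4 rows annotated to several Ly49 genes (named above each panel) is plotted for the exponential, chronic and wild-type arrays, with replicate numbers and the mean and SD in gray. Exponential replicate 2 and chronic replicate 1 are the 2 highest arrays in every panel, and in the row of Klra23, Klra16, Klra7, Klra4, Klra13-ps and Klra1 chronic replicate 1 (4.65) is above exponential replicate 2 (3.45).

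Among the 19937 genes ranked by their excess over the highest wild-type array, Klra8 took place 2, Klra6 place 4, Klra3 place 9 and Klra5 place 30 in exponential replicate 2. In chronic replicate 1, Klra6 took place 3, Klra8 place 6 and Klra3 place 52. Genes with an excess of 4-fold or more numbered 23 in exponential replicate 2, of which 3 were Ly49 genes, and 24 in chronic replicate 1, of which 2 were. In the other 6 leukemia arrays such genes numbered 10 to 68, with 0 Ly49 genes among them.

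Chronic replicate 1 was also the only array with 2 further genes high. BC018473, first by excess there, was at 8.25 in it and between 1.76 and 2.27 in the other 10 arrays. H2-Ea, second there, encodes an MHC class II chain that C57BL/6 mice are known not to express, and it was at 5.74 in chronic replicate 1 and between 1.63 and 2.08 in the other 10 arrays. In exponential replicate 2, H2-Ea was at 1.65. Ly49 genes are known to differ between mouse strains, and the part of genetic background in the Ly49 values was not tested.

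The T-cell receptor segments were set beside these values, since cells of a T-cell clone share a rearranged receptor. The first place in exponential replicate 2 belonged to the alpha-chain variable segment Trav19, at 8.63 there against 2.94 in the highest wild-type array. Only Trav and Trbv segments with a row annotated to 1 symbol were examined, and rows with several symbols or none were left out. Among the segments examined, chronic replicate 1 had none with an excess of 4-fold or more. Whether this array had a high segment in the rows left out was not tested. Besides exponential replicate 2, exponential replicate 5 alone had such an excess among the segments examined. The segment was Trbv1, at 8.10 against 4.23 in the highest wild-type array. Klra6 and Klra8 were at 1.71 and 1.79 in exponential replicate 5. The gamma-chain variable segment Trgv1 was at 9.31 in exponential replicate 4 against 5.51 in the highest wild-type array, and Klra6 and Klra8 were at 1.63 and 1.53 there.

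Pearson's r between Klra6 and Klra8 was 0.92 over the 11 arrays (Spearman's rho 0.64), and 0.27 over the 9 arrays left without exponential replicate 2 and chronic replicate 1. The relation thus rested on these 2 arrays. Genes outside the family with a range of at least 2 on the log2 scale were compared with both in the same way (780 genes, 11 arrays that share their normalization). The likest gene to each was Klre1 (r = 0.92 with Klra6 and 0.88 with Klra8), which encodes a lectin-like receptor of NK cells and lies in the same complex. Klra6 was next most like As3mt (0.83), an arsenic methyltransferase gene, Zfp512 (0.80), a zinc finger gene, Insl6 (0.79), an insulin-like peptide gene, and Gm4971 (0.78). Klra8 was next most like Ociad2 (0.87), Itm2a (0.86), a membrane protein gene of T-cells, Clec9a (0.86), a lectin-like receptor gene of dendritic cells, and As3mt (0.83). Without the 2 arrays, r with Klra6 was 0.51 for Klre1, 0.72 for Insl6 and 0.02 to 0.21 for Gm4971, Zfp512 and As3mt. With Klra8 it was 0.06 for Klre1, 0.66 for Ociad2, 0.51 for Itm2a, 0.44 for Clec9a and 0.19 for As3mt.

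**Figure D3:**
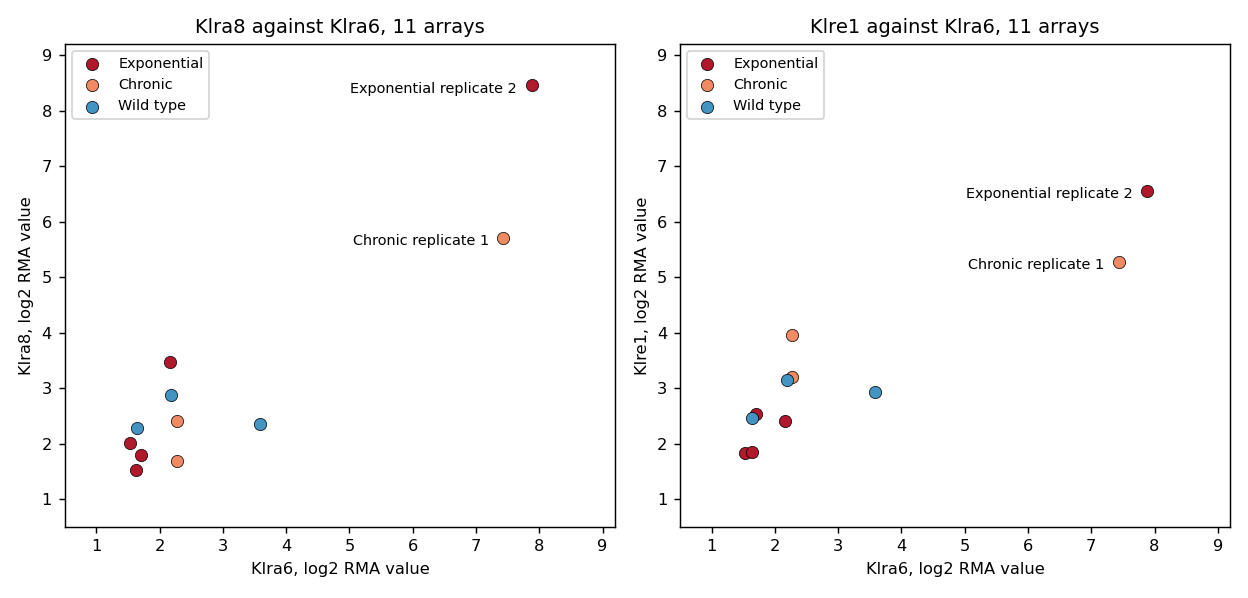
Each point is 1 array, with the log2 RMA value of Klra6 on the horizontal axis and that of Klra8 (left) or Klre1 (right) on the vertical axis, colored by group. Exponential replicate 2 and chronic replicate 1 lie apart at the upper right, and the other 9 arrays lie at Klra6 values of 1.53 to 3.59.

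The neighboring receptors of the NK gene complex were followed array by array. Klre1 was at 1.83, 6.56, 2.41, 1.85 and 2.52 in exponential replicates 1 to 5, at 5.28, 3.95 and 3.19 in chronic replicates 1 to 3, and at 2.46, 3.15 and 2.93 in wild-type replicates 1 to 3. Klri2, which encodes a receptor that pairs with that of Klre1, was at 7.10 in exponential replicate 2, between 1.48 and 1.54 in the other exponential arrays, between 1.44 and 1.64 in chronic arrays including replicate 1, and between 1.97 and 2.33 in wild-type arrays. High Klri2 was thus seen in 1 of the 2 Ly49-high leukemias. Clec9a was at 4.39 in exponential replicate 2 and at 2.47 in chronic replicate 1, against 1.59 to 2.57 in wild-type arrays.

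Klrc1, which encodes NKG2A, an inhibitory receptor that pairs with CD94, was at 2.20, 8.75, 6.52, 1.92 and 6.96 in exponential replicates 1 to 5, at 7.16, 8.22 and 7.05 in chronic replicates 1 to 3, and at 5.85, 5.97 and 5.89 in wild-type replicates 1 to 3. It was high in leukemias with and without high Klra6. Klrd1, which encodes CD94, was at 6.85, 8.06, 7.15, 3.39 and 6.24 in exponential, at 8.10, 8.49 and 8.56 in chronic, and at 6.32, 7.08 and 6.12 in wild-type replicates. Klrk1, which encodes NKG2D, an activating receptor on CD8 T-cells and NK cells, was highest in chronic replicate 2 (6.49) and exponential replicate 5 (5.82), and was 3.17 in exponential replicate 2 and 3.83 in chronic replicate 1, both below the 4.58 to 5.01 of wild-type arrays. Exponential replicates 1, 3 and 4 also had Klrk1 below every wild-type array, at 3.16, 3.20 and 2.23.

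**Figure D4:**
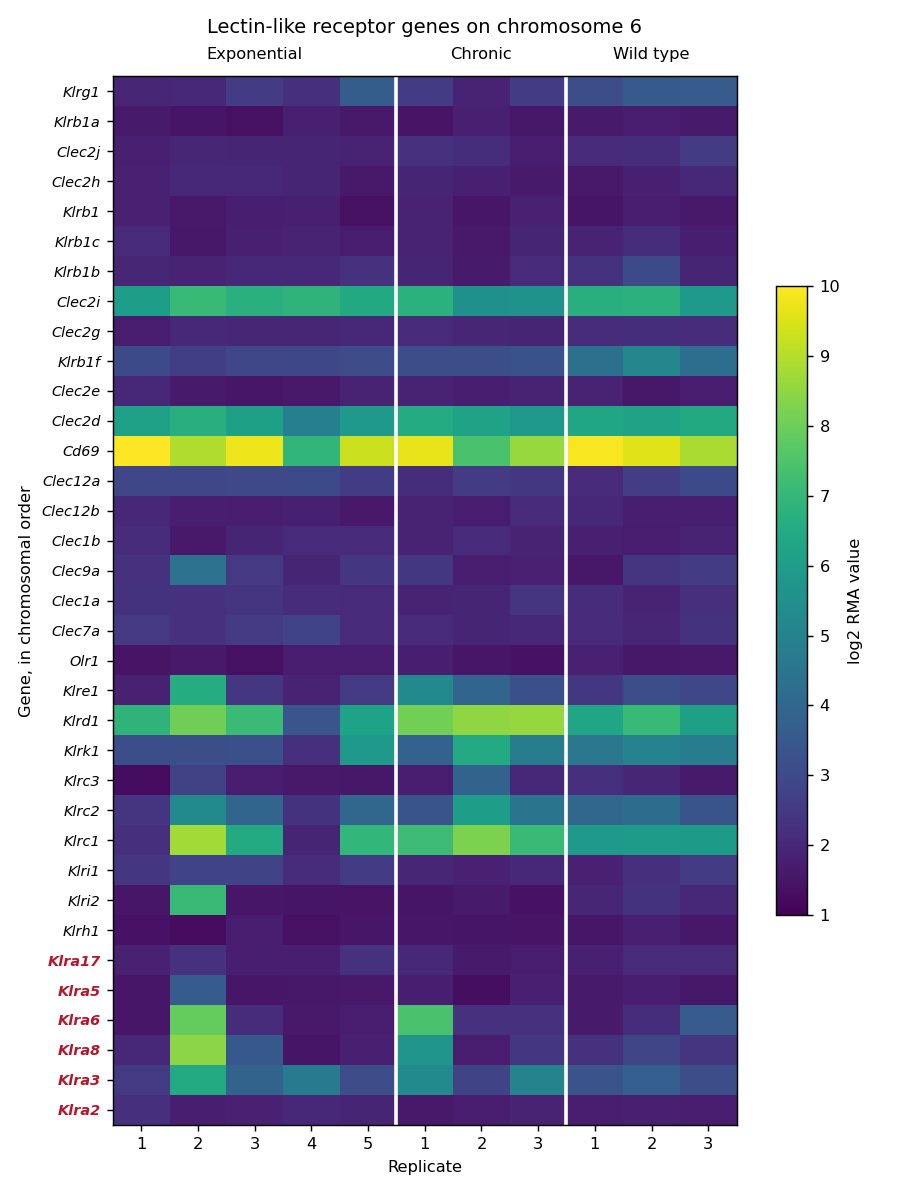
Rows are 35 lectin-like receptor genes of chromosome 6 in chromosomal order (Ly49 genes in red) and columns are the exponential, chronic and wild-type arrays by replicate, with the log2 RMA value as color. Among the bright genes in exponential replicate 2 are Klra6, Klra8, Klra3, Klre1, Klri2, Klrc1 and Klrd1, while Klra5 (3.64) is darker. Chronic replicate 1 is bright at Klra6, Klrc1 and Klrd1, among others, and less so at Klra8, Klra3 and Klre1 (5.71, 5.30 and 5.28). Klrd1 is bright in all chronic arrays (8.10 to 8.56).

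In each comparison the call required at least a 1.5-fold difference and a limma adjusted p under 0.05. In exponential against wild type, 0.416% of all genes were called (0.135% higher, 0.281% lower), and 0 of the 6 Ly49 genes. In chronic against wild type, 0.456% were called (0.14% higher, 0.316% lower), and 0 of the 6. In exponential against chronic, 0.0% of genes were called in either direction, and 0 of the 6. In all 3 comparisons 0 of the 6 had an unadjusted p under 0.05 with limma, and the methods' t-test called 0 of the 6 in each. Over all genes, 1949 had such an unadjusted p in exponential against wild type, 2225 in chronic against wild type and 1246 in exponential against chronic, where the methods' t-test called 0. The median log2 difference of the 6 genes was 0.42 in exponential against wild type (0.0067 over all genes), 0.38 in chronic against wild type (-0.0017) and 0.18 in exponential against chronic (0.0039). Klra3 was called in chronic against wild type without chronic replicate 2, with a log2 difference of 1.77 (limma adjusted p = 0.0412). Since the family was selected on these arrays, nothing is read from the counts. In bulk RNA, more cells of a type and more RNA per cell cannot be told apart.

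Of 15 measured adaptor and signalling genes, 0 were called in any comparison (3, 4 and 2 had an unadjusted p under 0.05 in exponential against wild type, chronic against wild type and exponential against chronic, and the methods' t-test called 0 in each). Without exponential replicate 4, Ptpn11, which encodes the phosphatase SHP-2, was called lower in exponential against wild type (log2 difference -0.82, limma adjusted p = 0.0385). Tyrobp, which encodes DAP12, was at 5.75, 5.06, 5.30, 5.52 and 5.50 in exponential replicates 1 to 5, at 4.41, 4.65 and 3.95 in chronic replicates 1 to 3, and at 4.83, 5.08 and 5.20 in wild-type replicates 1 to 3. Tyrobp in exponential replicate 2 was the lowest of its group, and in chronic replicate 1 it lay between the other 2 chronic arrays. Hcst, which encodes DAP10, was the highest of each group in these leukemias, at 7.09 and 7.46. It ranged from 5.76 to 7.09 in exponential, 6.55 to 7.46 in chronic and 6.03 to 6.93 in wild-type arrays. Ptpn6, which encodes SHP-1, ranged from 5.46 to 6.27 in exponential, 5.11 to 6.27 in chronic and 5.33 to 6.01 in wild-type arrays.

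Among 29 lectin-like genes outside Klra, 1 was called lower in exponential against wild type and 1 higher in chronic against wild type. Klrb1f, an NK receptor gene of the Nkrp1 group, was at 3.03, 2.67, 2.92, 2.95 and 3.10 in exponential replicates and at 4.34, 5.13 and 4.27 in wild-type replicates, without overlap, a log2 difference of -1.65 ± 0.20 (SE; limma adjusted p = 0.0127). In chronic replicates Klrb1f was at 3.15, 3.16 and 3.26, also without overlap (log2 difference -1.39, limma adjusted p = 0.061). There it was called lower only in 1 fit over all groups (limma adjusted p = 0.0157) and without the dimmest 30% of genes (limma adjusted p = 0.0406). Klrd1 was higher in every chronic array than in any wild-type array, with a log2 difference of 1.88 ± 0.26 (SE; limma adjusted p = 0.0371), but it was not called when any one of chronic replicates 1, 2 and 3 or wild-type replicates 1 and 3 was left out, nor in 1 fit over all groups (limma adjusted p = 0.457). Klre1 and Klrc1 were not called in any comparison over all arrays, and Klrc1 was called higher in chronic against wild type without chronic replicate 2 (log2 difference 1.20, limma adjusted p = 0.0412). Without exponential replicate 5, Klrk1 (log2 difference -1.84, limma adjusted p = 0.0409) and Klrg1 (-1.23, limma adjusted p = 0.0481), an inhibitory receptor gene, were called lower in exponential against wild type.

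Of the MHC class I ligands and their loading genes, 18 of 26 had a row of their own, and 0 were called in any comparison (5, 3 and 2 had an unadjusted p under 0.05 in exponential against wild type, chronic against wild type and exponential against chronic, and the methods' t-test called 0 in each). H2-K1 and H2-D1, the classical ligand genes, had only rows shared with other genes and were not analysed here. B2m, the common light chain of these ligands, ranged from 11.51 to 11.81 in exponential, 11.33 to 11.87 in chronic and 11.77 to 11.94 in wild-type arrays.

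Transcription factors tied to Ly49 expression or to NK-like T-cells included 19 measured genes, of which 0 were called in exponential against wild type (5 at an unadjusted p under 0.05; the methods' t-test 0) and 3 were called lower in chronic against wild type. Ikzf2, which encodes Helios, a factor of regulatory T-cells and of Ly49-bearing CD8 T-cells, was at 4.29, 2.67 and 4.26 in chronic and at 7.54, 7.69 and 7.68 in wild-type replicates, a log2 difference of -3.89 ± 0.40 (SE; limma adjusted p = 0.016). It was 3.06 in exponential replicate 2 and 6.88 in exponential replicate 4, and it was called lower in exponential against wild type only without that replicate 4 (log2 difference -3.81, limma adjusted p = 0.000167) or with a replicate block (limma adjusted p = 0.00557), in which exponential replicates 4 and 5 have no partner and do not count. Without exponential replicate 4, Tox (log2 difference -2.01, limma adjusted p = 0.00299) and Runx1 (-1.13, limma adjusted p = 0.0285) were also called lower in exponential against wild type. Tox, a regulator of T-cell and NK cell development, had a log2 difference of -2.10 ± 0.31 in chronic against wild type (SE; limma adjusted p = 0.0452), and Runx1 of -1.28 ± 0.19 (SE; limma adjusted p = 0.0452). Eomes, a factor of NK cells and memory CD8 T-cells, was at 7.08 in exponential replicate 2 and 6.80 in chronic replicate 1, the highest of each group, against 5.02 to 6.21 in wild-type arrays, and was not called. Exponential replicates 3 and 5 (6.52 and 6.69) and chronic replicate 3 (6.24) also had Eomes above every wild-type array. Tcf7, which acts on Ly49 promoters in NK cells, was not analysed here.

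Of 17 genes of Ly49-bearing or memory-type CD8 T-cells, 2 were called lower in exponential against wild type, Itga4 and Tnfrsf9, and 3 were called lower in chronic against wild type, the same 2 and Ikzf2. Itga4, an integrin chain for adhesion, was at 6.76, 4.97, 6.34, 6.47 and 6.41 in exponential, at 6.23, 6.95 and 7.67 in chronic, and at 9.19, 9.17 and 8.88 in wild-type replicates, with the lowest value in exponential replicate 2. Its log2 difference was -2.89 ± 0.35 in exponential (SE; limma adjusted p = 0.0129) and -2.13 ± 0.33 in chronic (SE; limma adjusted p = 0.0477) against wild type. Tnfrsf9, which encodes the costimulatory receptor 4-1BB, had log2 differences of -1.16 ± 0.14 (SE; limma adjusted p = 0.0128) in exponential and -1.25 ± 0.13 (SE; limma adjusted p = 0.0166) in chronic against wild type. Both genes lost the call in exponential against wild type when any 1 of the 3 wild-type arrays was left out. In chronic against wild type, Ikzf2, Itga4, Tnfrsf9, Tox and Runx1 lost it in the same way, Itga4, Tnfrsf9, Tox and Runx1 also without chronic replicate 1 or 2, and Runx1 also without chronic replicate 3. Markers of CD4 and regulatory T-cells also had lower means in both leukemia groups than in wild type. Cd4 averaged 2.13 in chronic and 4.42 in wild-type arrays (log2 difference -2.29, limma adjusted p = 0.0122), Cd40lg, a CD4 helper gene, 1.89 in chronic and 4.41 in wild-type arrays, and Foxp3, the factor of regulatory T-cells, 2.55 in chronic and 3.23 in wild-type arrays. In exponential arrays the means were 2.83 for Cd4, 2.19 for Cd40lg and 2.55 for Foxp3, and Cd4 was not called (limma adjusted p = 0.442). Exponential replicate 4 went apart from its group, with Cd4 at 5.18 and Cd40lg at 3.54. Its Foxp3 was at 2.24, its Itga4 at 6.47 and its Tnfrsf9 at 2.41. The part of the CD4 and regulatory T-cell markers in the lower calls was not tested. Il2rb, the IL-2 receptor beta chain, was at 7.18 in exponential replicate 2 and 6.56 in chronic replicate 1, against 5.32 to 6.22 in wild-type arrays, and was not called. Exponential replicates 3 and 5 (6.61 and 7.02) and chronic replicate 2 (6.69) also had Il2rb above every wild-type array. Over all 5 lists together, 96 genes, 0 were called higher and 3 lower in exponential, and 1 higher and 5 lower in chronic, each against wild type, and 0 in exponential against chronic (12 at an unadjusted p under 0.05; the methods' t-test 0).

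NK cells also carry Ly49 receptors, and 19 of the 21 symbols of an NK marker list were measured. The list gives some genes under both an older and a current symbol. Ncr1, which encodes NKp46, a defining receptor of NK cells, was at 1.56 in exponential replicate 2 and 1.66 in chronic replicate 1, the lowest of each group, against 1.85 to 3.20 in wild-type arrays. Klrb1c, which encodes NK1.1, was at 1.59 and 1.86 in these 2 leukemias, against 1.76 to 2.17 in wild-type arrays. These leukemia values lay below the median of all rows (2.30). So did Klrb1c in every other array and Ncr1 in all others but wild-type replicate 2 (3.20). Gzma, Txk and Nkg7 were at 5.80, 7.32 and 9.24 in exponential replicate 2, above their highest wild-type arrays (3.45, 6.67 and 8.63). In chronic replicate 1 they were at 2.83, 6.93 and 8.98. Txk and Nkg7 were also above every wild-type array in exponential replicates 3 (6.99 and 8.84) and 5 (7.03 and 8.81). In chronic replicate 2, Gzma, Txk and Nkg7 were at 5.13, 6.82 and 9.15, all above wild type. Klrb1f, Itga2 and Adgrg1 lay below every wild-type array in exponential replicate 2 and chronic replicate 1. Klrb1f did so in every leukemia array, and Adgrg1 in all but exponential replicate 1. The level summed over the list, as log2 of the sum of unlogged values, was 7.64 to 10.49 in exponential, 9.36 to 9.98 in chronic and 8.81 to 9.63 in wild-type arrays, with its highest value in exponential replicate 2 and 9.91 in chronic replicate 1. Exponential replicate 2 had 7 and chronic replicate 1 had 9 of the 19 genes at or below the median of all rows, against 5 to 7 in wild-type arrays.

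**Figure D5:**
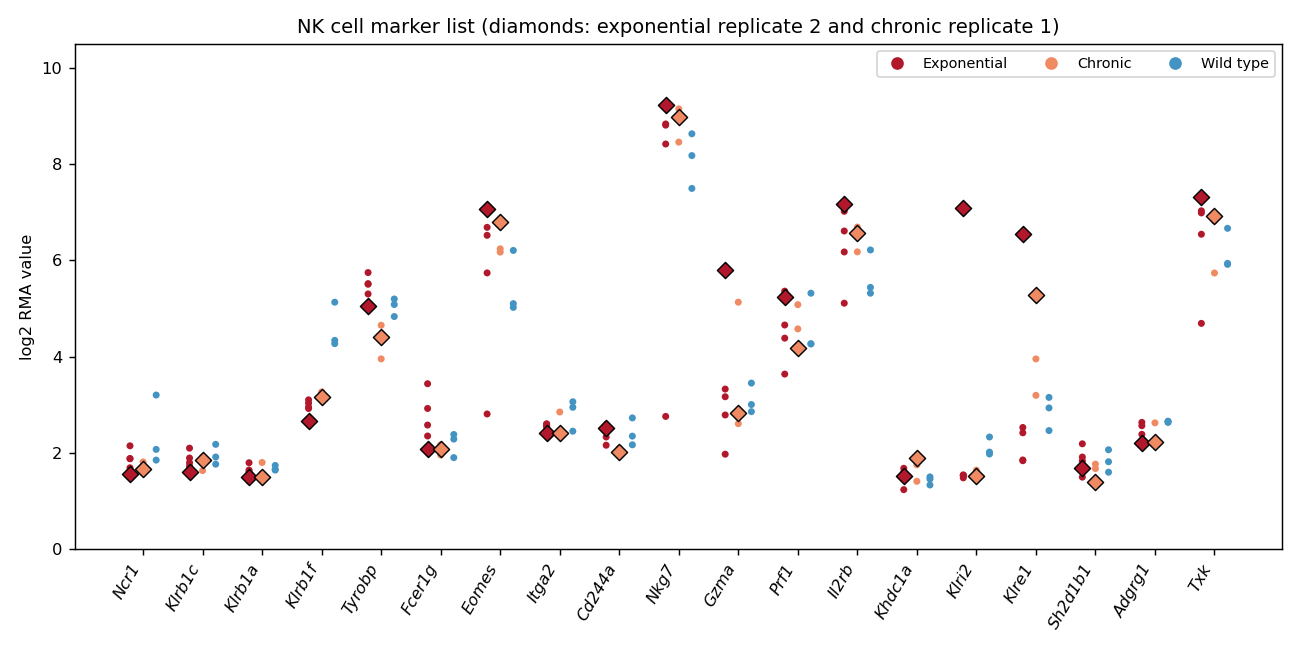
The log2 RMA value of 19 NK cell marker genes is plotted for the exponential, chronic and wild-type arrays, with exponential replicate 2 and chronic replicate 1 as diamonds. Their diamonds are at 1.56 and 1.66 for Ncr1, within or below the wild-type range for Klrb1c, and well above it for Klre1 (6.56 and 5.28).

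Cd3e, which encodes a chain of the T-cell receptor complex, was between 7.24 and 7.48 in exponential, 6.85 and 7.47 in chronic and 7.55 and 8.32 in wild-type arrays, so the T-cell label held. Cd8a was at 8.16 in exponential replicate 2 and 8.12 in chronic replicate 1, within the 7.94 to 8.20 of the other exponential arrays apart from replicate 4, which was at 2.96. Exponential replicate 4 also had Cd4 at 5.18, where the 4 others of its group had 2.15 to 2.44 and wild-type arrays 4.21 to 4.62. This array thus went against the CD8 enrichment that the study's methods give for its group. Without it the exponential means were 3.32 for Klra6, 3.93 for Klra8 and 4.00 for Klra3. The summed myeloid list was 6.65 in exponential replicate 2 and 5.40 in chronic replicate 1, and ranged from 6.65 to 9.66 in exponential, 5.32 to 5.54 in chronic and 5.32 to 5.47 in wild-type arrays. The summed erythroid list, of which 2 of 5 genes were measured, was 3.11 to 5.46 in exponential arrays (3.40 in replicate 2), 3.29, 9.29 and 7.66 in chronic replicates 1 to 3, and 8.55 to 9.80 in wild-type arrays, with Car1 at up to 9.79 and Alas2 at 1.95 to 2.72 over all arrays. The part of these cell types in the Ly49 values was not tested. Correlations between arrays over all rows were 0.929 to 0.969.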

How the data were processed

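Gene expression was measured with Affymetrix Mouse Gene 1.0 ST arrays in 5 exponential, 3 chronic and 3 wild-type samples, grouped from the titles of the labels. The authors deposited log2 values, background-corrected by RMA and quantile-normalized per the study's methods. The log base was judged from their range, 0.775 to 13.48 with a median of 2.30. The number of arrays limits the precision. Of 34760 rows, 21640 carried 1 gene symbol in the platform annotation. Where a gene had more than 1 such row (954 genes), the one of highest mean was taken, giving 19937 genes.

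Each comparison was fitted on its own groups with limma 3.58.1 in R 4.3.3 (lmFit, eBayes), adjusted by Benjamini-Hochberg over all genes. The fit was tested on simulated data. The call required an adjusted p under 0.05 and at least a 1.5-fold difference. Members and gene lists were chosen with earlier results of these data known. Named genes were every Klra gene, per array where its range was at least 2, shared Klra rows, the 5 genes likest to Klra6 and to Klra8, every called list gene and a set of partner, ligand and marker genes. Klri2, Trav19, Trbv1, Trgv1, Klrg1, Cd40lg, Foxp3, BC018473, H2-Ea and the genes of the other observations were named after their values were seen. So were Gzma, Txk, Nkg7, Itga2 and Adgrg1. Alternatives were 1 fit over all groups, a replicate block, leaving out the dimmest 30% of genes, cyclic loess, median centring, the methods' t-test, all rows, gene means over rows, calls without the fold threshold and leaving out each array. The methods' t-test is Student's t-test, called here at a Benjamini-Hochberg adjusted p under 0.05 and the same fold. The study reported its mouse genes at an unadjusted p under 0.05, so the t-test counts are not counts by its criterion. Promoter windows are from RefSeq and were aligned with Biopython 1.88.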

Additional observations from a re-analysis of the deposited data

Results flagged for a closer look

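Of 37 genes and rows tested for a sample far from the others of its group, 12 stood out, all in the exponential group, which was the only one with enough arrays. Chance flags about 1 in 20 groups, but the Klra rows were selected on these arrays and the genes likest to Klra6 and Klra8 follow from them, so these values are a description and the count of 12 supports nothing.

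Exponential replicate 2 was apart in 8 of them on the log2 scale. It was high for Klra6 at 7.88 (next 2.16), Klra8 at 8.45 (next 3.48), Klra5 at 3.64 (next 1.61) and the row shared by Klra14-ps, Klra9, Klra8, Klra6, Klra5, Klra3 and Klra10 at 7.73 (next 3.15). It was also high for Klre1 at 6.56 (next 2.52), Zfp512 at 5.59 (next 4.05) and Clec9a at 4.39 (next 2.49), and low for Itga4 at 4.97 (next 6.34).

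Exponential replicate 4 was apart in Cd8a, which was low at 2.96 (next 7.94), and in Cd4 and Tox, which were high at 5.18 (next 2.44) and 6.85 (next 4.85). Exponential replicate 5 was high for Klrk1 at 5.82 (next 3.20).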

How the results depend on the processing

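The excess of Klra6 and Klra8 over the highest wild-type array in exponential replicate 2 and chronic replicate 1 moved little under cyclic loess, median centring and the mean of all rows (Klra6 4.25 to 4.30 and 3.79 to 3.85, Klra8 5.58 to 5.61 and 2.84 to 2.86, in exponential replicate 2 and chronic replicate 1). Pearson's r of Klra6 and Klra8 was 0.27 without the 2 arrays of highest Klra6, an alternative added after seeing the data.

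In exponential against wild type the genes called, 83, became 139 with a replicate block (which leaves exponential replicates 4 and 5 without a partner), 4 with the methods' t-test and 45 over all rows, and 16 to 221 when 1 array was left out (36 without exponential replicate 2, 43 without 3, 221 without 4 and 37 without 5, and 32, 16 and 26 without wild-type replicates 1, 2 and 3). Called list genes, 3, became 9 with the block and 0 with the t-test, and 1 to 7 when 1 array was left out. In chronic against wild type, 91 became 0 with the t-test and 0 over all rows, and 8 to 108 when 1 array was left out (40 and 45 without chronic replicates 1 and 2, and 8, 14 and 18 without wild-type replicates 1, 2 and 3). The called list genes, 6, became 2 in 1 fit over all 3 groups, 0 with the t-test and 0 over all rows, and 0 to 5 when 1 array was left out, while the Klra count was 0 to 1 (Klra3, without chronic replicate 2). In exponential against chronic 0 to 2 genes were called when 1 array was left out (2 without chronic replicate 1). The causes were not tested. The t-test counts are at its adjusted p and not at the unadjusted p under 0.05 of the study. Klrb1f kept its call in 16 of 17 alternatives and lost it with the methods' t-test (adjusted p = 0.182), while the calls of Itga4 and Runx1 in chronic against wild type were kept in 6 of 15. Same-numbered arrays share only a number, with correlations of their deviations from -0.04 to 0.18, and under the block 0 Klra genes were called. With 3 arrays in 2 of the groups, and 2 leukemias carrying the Klra6 and Klra8 levels, group means of this family have wide errors.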

Other observations

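Beyond the Klra genes, several genes of high excess in the 2 Ly49-high leukemias were above every wild-type array in both. Itm2a was at 8.32 in exponential replicate 2 and 6.92 in chronic replicate 1, against 3.34 to 4.80 in wild-type arrays, As3mt at 6.62 and 5.62, against 3.21 to 3.40, and 1700025G04Rik at 8.50 and 8.46, against 5.43 to 5.82 (log2). 1700025G04Rik was at 6.87 to 8.51 in all 8 leukemia arrays. Itm2a was also above every wild-type array in exponential replicates 3 and 5 (6.45 and 5.88). As3mt was so in exponential replicates 3 and 5 (4.36 and 3.85) and in chronic replicates 2 and 3 (5.07 and 3.50). High in 1 of the 2 Ly49-high leukemias alone was 5830411N06Rik, at 5.76 in exponential replicate 2 and 2.17 in chronic replicate 1, against 2.41 to 2.66 in wild-type arrays. Ppic, a cyclophilin gene, was at 7.44 in chronic replicate 1, 6.29 in chronic replicate 3 and 2.60 in exponential replicate 2, with a highest wild-type array of 4.40. Ifit3, an interferon-induced gene, was at 6.69 in chronic replicate 1, 6.27 in chronic replicate 2, and 5.87 and 5.84 in exponential replicates 2 and 3, with a highest wild-type array of 3.96. Cd163l1, a scavenger receptor gene, was at 5.17 in chronic replicate 1 and 3.24 in exponential replicate 2, with a highest wild-type array of 2.66. These genes were chosen after their values were seen.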
